A study of Mus musculus with 24 samples.

Results

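Major histocompatibility complex (MHC) class II presentation genes were followed in mouse bone marrow stem and progenitor cells, as 9 of the 27179 genes in the count table. They are the chain genes H2-Aa, H2-Ab1 and H2-Eb1, the invariant chain Cd74, the coactivator Ciita, and the peptide-loading genes H2-DMa, H2-DMb1, H2-Oa and H2-Ob. Members were taken by gene identifier, all 9 were in the table, and all 9 passed the expression filter in every comparison. The set was selected on earlier results of these data, the comparison of deleted with control mice, so values of that comparison describe the members and are no test of them.

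RNA of 8 mice was sequenced, 4 with Phf6 deleted and 4 controls, in 3 marrow populations: HSC (haematopoietic stem cells), MPP (multipotent progenitors) and HPC-1, a restricted progenitor. That made 24 libraries in 6 groups of 4. Phf6 is an X-linked chromatin gene mutated in human T-cell leukaemia. The 4 litters each supplied 1 deleted and 1 control male, and each mouse gave 1 library per population. Both genotypes carry the strain label Phf6lox/Y;Tie2-creTg/+, a loxP-flanked Phf6 allele with a Cre transgene driven by Tie2 in endothelial and haematopoietic cells, so whether the controls carried Cre cannot be read from the labels, which also give no age. Cells bearing the lineage markers CD3, B220, GR1 or TER119 had been removed, and the sort used CD48, CD150, SCA1 and cKIT. SMART-Seq v4 with Nextera XT served for HSC and MPP and TruSeq Stranded for HPC-1, so kit and population cannot be told apart for HPC-1 and its levels are not set against the others.

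Class II molecules are pairs of an alpha and a beta chain that present peptides from endosomes to CD4+ T cells. New pairs are held by the invariant chain, cathepsins trim that chain, and the DM molecule then exchanges the remaining fragment for a peptide while the DO molecule restrains DM. Transcription of the family depends on CIITA, which does not bind DNA itself and is recruited by RFX, CREB and NF-Y factors sitting on an X box and a Y box before each gene. Class II is best known from dendritic cells, macrophages and B cells, and is also present on mouse stem and progenitor cells.

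Upstream stretches of 3 members are shown because they hold both boxes in the classical order and spacing, which is the sequence feature these genes are known to share. Sequences are those of RefSeq on GRCm38.p6, 5′ to 3′ on the strand of the gene, and capitals mark the matched X part (or X2 box) followed by the Y box.
H2-Aa: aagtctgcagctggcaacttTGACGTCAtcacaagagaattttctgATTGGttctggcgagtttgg
H2-Eb1: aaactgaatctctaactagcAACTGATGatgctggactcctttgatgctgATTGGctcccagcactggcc
H2-DMb1: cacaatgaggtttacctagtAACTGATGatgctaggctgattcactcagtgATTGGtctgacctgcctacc

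These stretches lie at chr17:34287852-34287917 (minus strand) for H2-Aa and, on the plus strand, at chr17:34305758-34305827 for H2-Eb1 and chr17:34153079-34153149 for H2-DMb1. All 3 end before the annotated start of the gene, by 29 bases at the nearest. In H2-Aa the letters TGACG were followed by the Y box after 21 bases (the rest of the capitals, where the other strand matches, are among these), in H2-Eb1 the X part after 22 and in H2-DMb1 after 23. The search covered 300 bases, from 250 before to 50 after the start, on both strands, with ATTGG for the Y box, TGACG for the X2 box and AACNGNTG for part of the X1 box. In H2-Aa the TGACG matches of the 2 strands overlap within the capitals, and no X match overlapped a Y match. RefSeq windows were held for 6 of the 9 members (7 windows, 2 of them for H2-DMa), and none for H2-Ab1, Cd74 or Ciita. The Y box letters were in 6 of the 7 windows against 37.4% of 32851 windows genome-wide, the X2 letters in 1 against 20.8%, and the X1 part in 2 against 10.5%. An X part or X2 box lying 5 to 40 bases before a Y box was in 3 of the 7, the ones printed, against 2.62% of all windows.

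Library totals ran from 9658167 to 27786830 counts. Phf6 was lower in every deleted than in every control library of its population, with HSC means of 55.9 against 215 CPM (counts scaled to library size), MPP means of 56.0 against 196 and HPC-1 means of 27.4 against 116. Its counts are per gene and not per exon, so the part of the gene that the remaining reads came from cannot be told. Among the sort markers Slamf1, which encodes CD150, averaged 67.3 CPM in control HSC and 1.9 in control MPP, and Kit averaged 702 to 1000 CPM over the 6 groups. Ly6a, which encodes SCA1, averaged 162 CPM in control HSC and 324 in control MPP, and Cd48 averaged 14.8 and 27.8. In control HPC-1, scaled separately, Ly6a averaged 42.9 CPM and Cd48 183. Of 11 sort and stem cell markers, 8 were higher and 3 lower in control MPP than in control HSC. Those higher included Procr (163 against 92.1 CPM) and Hlf (641 against 287). Flt3, a marker of progenitors beyond the stem cell, averaged 43.4 CPM in control HSC and 446 in control MPP. In deleted mice Slamf1 averaged 36.3 CPM in HSC (8.99 to 52.7, controls 52 to 86.5) and 1.26 in MPP. Flt3 averaged 39.3 CPM in deleted HSC and 542 in deleted MPP (522 to 566, controls 430 to 465). Of 11 sort and stem cell markers, 5 had a fold above 0 for deletion in HSC and 7 in MPP, and 0 passed the edgeR threshold given below. One library, MPP from deleted mouse 3, had 9.34% of its counts in 10 genes, the highest share of the 24 (lowest 2.95%). Results of the members that rest on it are also given without it. In bulk RNA, fewer cells with a transcript and less transcript per cell cannot be told apart.

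The alpha chain H2-Aa (Entrez 14960, chr17:34282744-34287823) was higher in the deleted mouse of all 4 litters in each population. In HSC the controls of litters 1 to 4 held 78.4, 32.9, 45.9 and 47.7 CPM and their deleted littermates 90.5, 76.8, 82.2 and 74.9. In MPP the controls held 84.0, 43.2, 78.8 and 70.4 CPM and the deleted libraries 193, 165, 212 and 237. Deleted MPP lay well clear of all controls, while in HSC control 1 reached the deleted range. In HPC-1 the controls held 59.8, 39.7, 17.8 and 25.5 CPM and the deleted libraries 71.1, 78.5, 37.8 and 51.3, with overlap through control 1. The log2 fold changes were 0.66 ± 0.24 for HSC, 1.54 ± 0.23 for MPP and 0.74 ± 0.42 for HPC-1 (± SE from edgeR, here and below).

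H2-Ab1 (Entrez 14961, chr17:34263227-34269418), the beta chain that pairs with H2-Aa, was the only member whose deleted libraries lay above all controls in each of the 3 populations. In HSC the controls held 149, 82.3, 128 and 135 CPM and the deleted libraries 222, 176, 273 and 210. In MPP they held 162, 134, 148 and 222 CPM against 422, 359, 356 and 564. These ranges did not touch, and within litters the MPP difference was nearly constant, between 1.27 and 1.42 on the log2 scale. In HPC-1 controls held 82.4, 65.9, 54.6 and 70.5 CPM and deleted libraries 107, 118, 90.2 and 95.9. The log2 fold changes were 0.83 ± 0.20, 1.35 ± 0.22 and 0.59 ± 0.13 in HSC, MPP and HPC-1.

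H2-Eb1 (Entrez 14969, chr17:34305867-34316674), the beta chain of the second classical pair, had the largest fold of the family, in MPP. There the controls held 26.9, 16.8, 20.1 and 24.8 CPM and the deleted libraries 70.0, 65.2, 53.3 and 83.2, a log2 fold change of 1.61 ± 0.22. In HSC the controls held 20.3, 9.56, 17.6 and 25.2 CPM and the deleted libraries 32.5, 21.3, 24.4 and 34.0. In HSC the ranges overlapped through control 4, although each deleted mouse was above its littermate. HPC-1 controls held 36.5, 15.02, 9.58 and 14.5 CPM and deleted libraries 41.9, 44.2, 25.6 and 24.5, with control 1 inside the deleted range. The folds there were 0.63 ± 0.31 in HSC and 0.85 ± 0.43 in HPC-1. H2-Ea, whose product would be its alpha partner and which RefSeq lists as a transcribed pseudogene, had 0 counts in all 24 libraries.

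Cd74 (Entrez 16149, chromosome 18, 60803849 to 60812652), the invariant chain, followed the same order. In HSC the controls held 160, 88.4, 104 and 156 CPM and the deleted libraries 174, 184, 166 and 182. The deleted HSC libraries were tightly grouped, just above the highest control. MPP controls held 209, 142, 202 and 224 CPM, and deleted MPP held 537, 459, 331 and 796 CPM. In CPM this was the widest spread of any chain in HSC or MPP, at the highest mean (531), and spread relative to the mean was not ranked. In HPC-1 the values were 103, 70.5, 42.6 and 44.3 CPM in controls and 143, 152, 66.1 and 87.3 in deleted mice, which overlapped. The log2 fold changes were 0.48 ± 0.20, 1.44 ± 0.27 and 0.78 ± 0.41. A microRNA gene, Mir5107, lies within Cd74, so their reads cannot be told apart here.

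**Figure D1:**
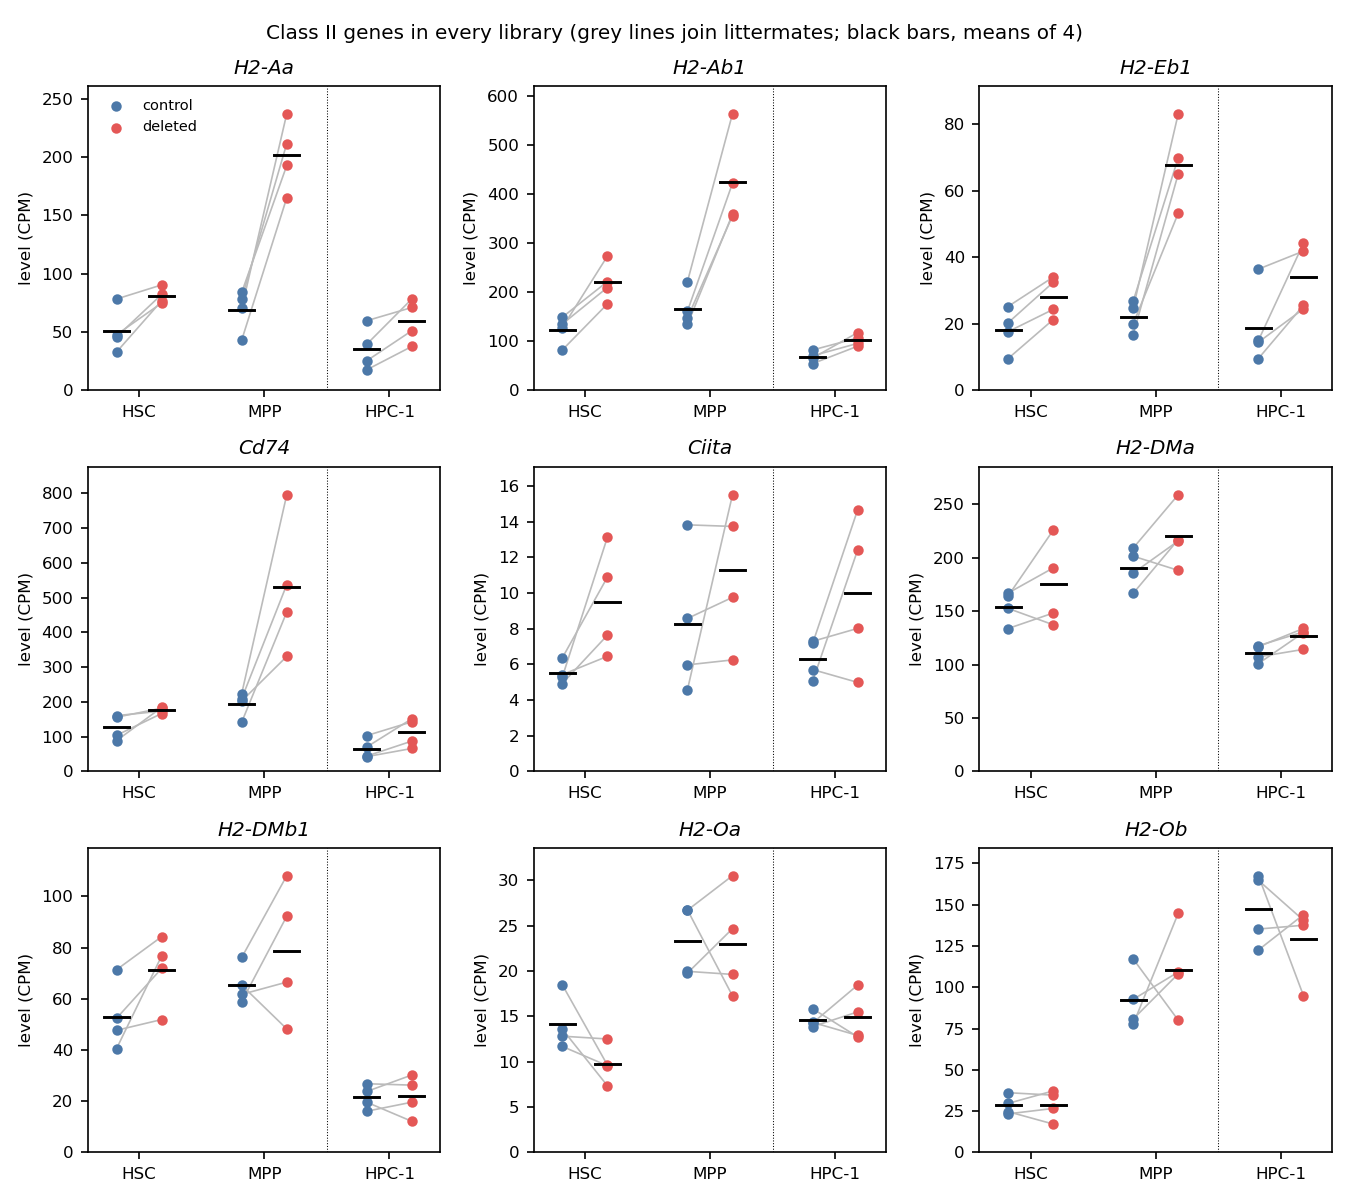
Level of each class II gene (CPM, vertical axis from 0) in every library, by population and genotype, with grey lines joining littermates and black bars at the mean of 4. The 4 deleted MPP libraries sit above all MPP controls for H2-Aa, H2-Ab1, H2-Eb1 and Cd74, while H2-DMa, H2-DMb1, H2-Oa and H2-Ob overlap in each population, and HPC-1, right of the dotted line, was made with another kit and is scaled separately.

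Ciita (Entrez 12265, chr16:10480014-10531064), the coactivator of the family, was expressed at 4.58 to 15.5 CPM. In HSC the controls held 6.36, 5.43, 5.28 and 4.92 CPM and the deleted libraries 10.9, 6.45, 13.1 and 7.63, and the 2 ranges did not overlap. MPP controls held 8.57, 4.58, 5.97 and 13.8 CPM and deleted libraries 9.76, 15.5, 6.25 and 13.7. Here litter 2 alone differed by more than 0.2 on the log2 scale. In HPC-1 controls held 5.05, 7.17, 7.29 and 5.71 CPM and deleted libraries 12.4, 14.7, 8.02 and 4.99, with the deleted mouse of litter 4 below its littermate. The log2 fold changes were 0.79 ± 0.38 (HSC), 0.46 ± 0.40 (MPP) and 0.67 ± 0.32 (HPC-1), so the MPP chains differed more between genotypes than Ciita did there, with no test of that difference between genes. Ciita overlaps Dexi and LOC115488669 in the annotation.

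The genes of the DM exchange factor differed little between genotypes. H2-DMa (Entrez 14998, chr17:34119693-34139101) held 134, 153, 167 and 164 CPM in control HSC and 148, 137, 190 and 226 in deleted HSC. In MPP it held 186, 202, 167 and 209 CPM in controls and 216, 188, 217 and 259 in deleted mice. Its ranges overlapped in all 3 populations, and the log2 fold changes were 0.18 ± 0.18, 0.20 ± 0.17 and 0.20 ± 0.09. H2-DMb1 (Entrez 14999, chr17:34153191-34160229) ran from 40.5 to 84.2 CPM in HSC and from 48.2 to 108 in MPP, with folds of 0.43 ± 0.22 and 0.26 ± 0.24. In HPC-1 it was at 21.6 ± 4.71 CPM in controls and 22.1 ± 7.95 in deleted mice (mean ± SD, n = 4 each), with a fold of 0.03 ± 0.25. H2-DMa overlaps Brd2, and H2-DMb2, a close copy of H2-DMb1, averaged only 1.16 to 5.04 CPM over the groups. How the authors counted reads shared between such copies is not known.

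The genes of DO, the inhibitor of DM, did not follow the chains. H2-Oa (Entrez 15001, chr17:34092379-34095234) held 11.7, 13.6, 12.8 and 18.5 CPM in control HSC and 9.57, 7.36, 12.5 and 9.65 in deleted HSC. It was thus below the littermate in 4 of 4 litters in HSC, with overlapping ranges and a log2 fold change of -0.53 ± 0.30. The fold was -0.02 ± 0.24 in MPP and 0.03 ± 0.19 in HPC-1. H2-Ob (Entrez 15002, chr17:34238905-34245908) held 24.7, 23.3, 36.1 and 29.6 CPM in control HSC and 17.2, 26.6, 34.7 and 37.2 in deleted HSC, with a fold of 0.02 ± 0.28. Its folds were 0.26 ± 0.21 in MPP and -0.19 ± 0.14 in HPC-1, with overlap in both. The values nearest 0 changed sign among the 14 settings run: H2-Ob in HSC (-0.128 to 0.218), H2-Oa in MPP (-0.191 to 0.0958) and in HPC-1 (-0.0894 to 0.099), and H2-DMb1 in HPC-1 (-0.158 to 0.236). H2-Oa overlaps the locus BC051537.

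**Figure D2:**
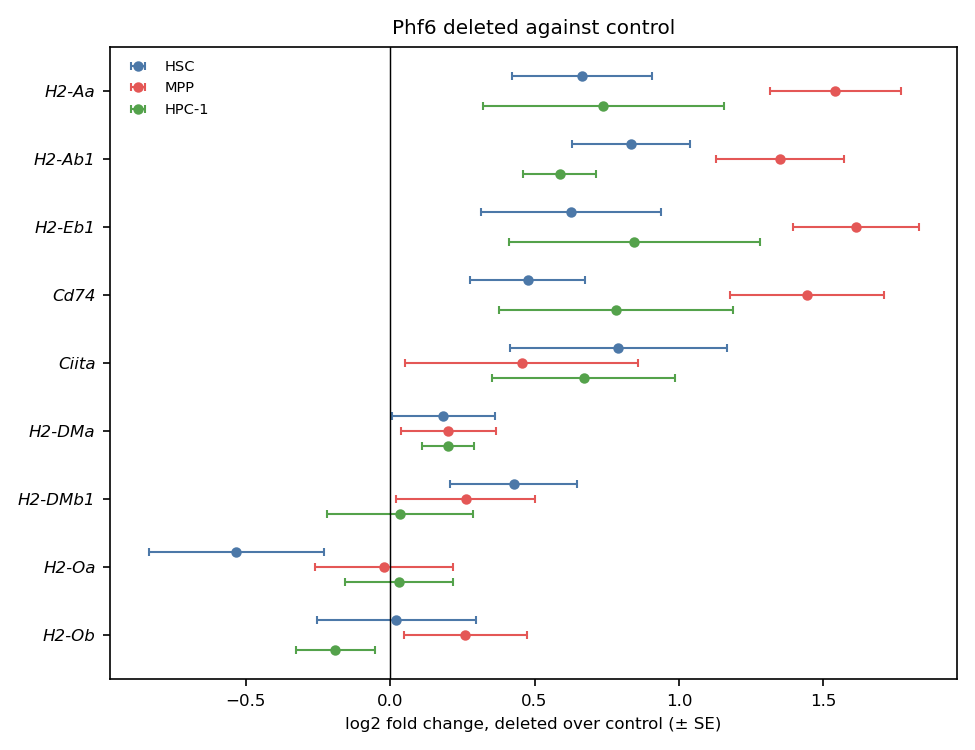
Log2 fold change of each class II gene, deleted over control (horizontal axis, points with bars of ± 1 SE, 4 libraries a group), in HSC, MPP and HPC-1. The 3 chain genes and Cd74 lie between 0.48 and 1.61 in all populations and highest in MPP, whereas H2-DMa lies at 0.18 to 0.20 and H2-Oa and H2-Ob on both sides of 0.

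Counted over the set, 8 of 9 members had a fold above 0 in each population, with a median log2 fold change of 0.476 (HSC), 0.455 (MPP) and 0.587 (HPC-1). Over all genes tested the medians were 0.00632, 0.019 and -0.00374, and 50.8%, 51.9% and 49.3% were above 0. Every deleted library was above every control for 3 members in HSC (H2-Ab1, Cd74, Ciita), where 1.57% of all genes did so. The same held for 4 in MPP (the 3 chain genes and Cd74) against 2.96%, and for 1 in HPC-1 (H2-Ab1) against 1.58%. The deleted mouse was above its littermate in 4 of 4 litters for 6 members among HSC, 4 among MPP and 5 among HPC-1 libraries, against 6.08%, 11% and 7.84% of all genes. H2-Aa, H2-Ab1, H2-Eb1 and Cd74 did so in 12 of 12 litter comparisons, as did 0.491% of genes tested in all 3 populations. Since this comparison chose the members, these shares are printed beside the counts and nothing is read from them.

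Calls from the fits over all genes are listed for the record and are no test of the members, since this comparison chose them. By the edgeR call (Benjamini-Hochberg adjusted p under 0.05 over all genes), 1 of 9 members passed in MPP, H2-Eb1, beside 0.029% of genes. The count was 0 for HSC beside 0.0073% of genes, and 0 for HPC-1 beside 0.0647%. At an unadjusted p under 0.05 there were 3 members in HSC beside 3.86% of all genes, 4 in MPP beside 8.09% and 2 in HPC-1 beside 4.99%. DESeq2 called 0 members and 14 genes in HSC and 1 member and 68 genes in HPC-1, and limma-voom called 0 members in both. With the litter as a replicate block, 2 members passed in MPP (H2-Aa, H2-Ab1) beside 0.0435% of genes and 3 in HPC-1 (H2-Aa, H2-Ab1, Cd74) beside 0.431%. Without the MPP library of deleted mouse 3, 22 genes passed in MPP, among them H2-Aa, H2-Ab1, H2-Eb1 and Cd74, with folds of 1.52 ± 0.21, 1.43 ± 0.20, 1.71 ± 0.19 and 1.62 ± 0.20. Leaving out any 1 of the other 7 MPP libraries gave 2 to 3 genes and 0 members.

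The step from HSC to MPP within control mice uses no deleted library and is not the comparison that chose the members. Control libraries were part of that comparison, however, so the values of this step are also given as a description. H2-Ob was the 1 member of 9 that passed, where 8.84% of all 13636 genes tested passed. It held 24.7, 23.3, 36.1 and 29.6 CPM in the HSC of control mice 1 to 4 and 92.7, 80.8, 117 and 77.6 in their MPP. The groups were far apart, with a log2 fold change of 1.68 ± 0.18 (3.21-fold, edgeR adjusted p = 0.000119), and the call held in 8 of 8 fits that left out 1 library (adjusted p up to 0.000863). H2-Oa, the other DO chain, was at 0.72 ± 0.22 (edgeR adjusted p = 0.0579) and Cd74 at 0.61 ± 0.20 (0.0869). The remaining 6 lay between 0.28 and 0.57, so all 9 had values above 0, with a median of 0.421 against -0.00676 over all genes.

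HSC and MPP of a number come from the same mouse, and with the mouse as a replicate block 4 members passed where 15.5% of all genes did. These were H2-Ob (1.69 ± 0.13, edgeR adjusted p = 7.46e-05), Cd74 (0.63 ± 0.10, 0.00415), H2-Oa (0.72 ± 0.18, 0.0245) and H2-Ab1 (0.43 ± 0.13, 0.0494). H2-Aa was at 0.45 ± 0.13 in that fit (edgeR adjusted p = 0.0519). H2-DMa was at 0.30 ± 0.10 (edgeR adjusted p = 0.0804) and H2-DMb1 at 0.32 ± 0.13 (0.13). Differences between members were not tested.

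Within deleted mice the same step is likewise a description, because these libraries too entered the choice of the members. H2-Ob went from 17.2, 26.6, 34.7 and 37.2 CPM in HSC to 109, 108, 80.0 and 145 CPM in MPP, a log2 fold change of 1.91 ± 0.29 with no overlap. The values were 1.57 ± 0.26 for Cd74, 1.29 ± 0.19 for H2-Aa, 1.26 ± 0.25 for H2-Eb1, 1.22 ± 0.32 for H2-Oa and 0.93 ± 0.22 for H2-Ab1. H2-DMa was at 0.31 ± 0.21, Ciita at 0.23 ± 0.41 and H2-DMb1 at 0.13 ± 0.28. Of the 9, 4 were past the threshold (H2-Aa, H2-Eb1, Cd74, H2-Ob) beside 1.41% of 13887 genes, and nothing is read from that count. It was 4 without the MPP library of deleted mouse 3, 2 without the HSC library of deleted mouse 1 or 3 or the MPP library of deleted mouse 1, and 0 without the HSC library of deleted mouse 2.

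**Figure D3:**
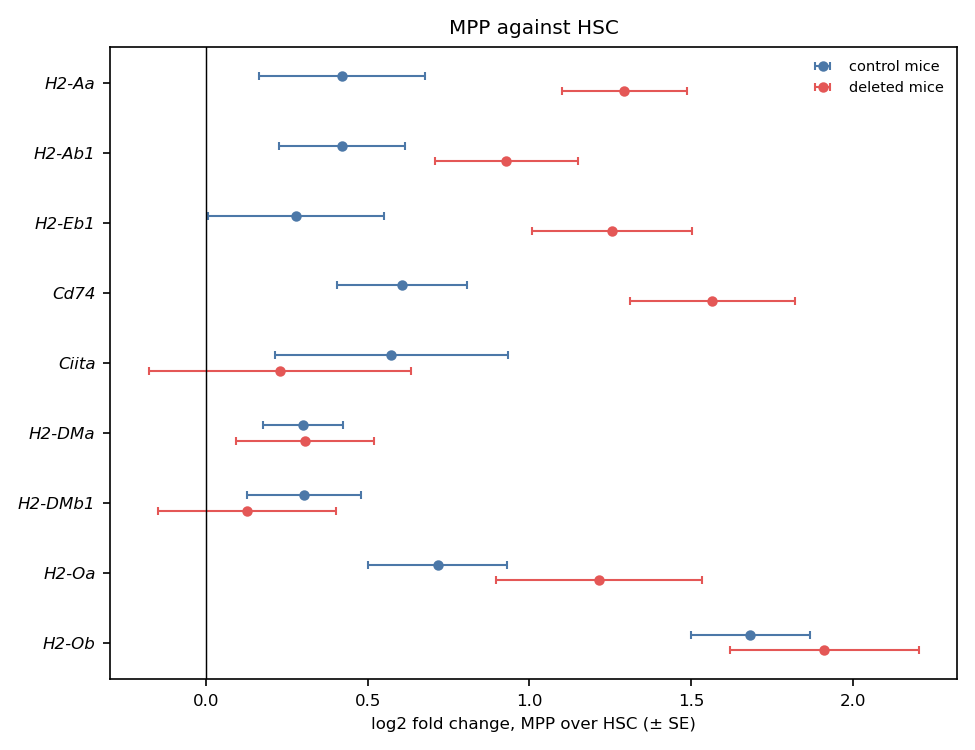
Log2 fold change of each class II gene, MPP over HSC (horizontal axis, points with bars of ± 1 SE, 4 libraries a group), in control and in deleted mice. H2-Ob is the highest point in both genotypes (1.68 and 1.91), and H2-Aa, H2-Eb1 and Cd74 lie at 0.28 to 0.61 for controls but 1.26 to 1.57 for deleted animals.

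Differences in the deletion effect between populations are likewise given as a description, since the same values chose the members. Against HSC, the MPP effect was larger by 0.98 ± 0.34 for Cd74, 0.99 ± 0.38 for H2-Eb1, 0.88 ± 0.34 for H2-Aa and 0.52 ± 0.30 for H2-Ab1 on the log2 scale. For Cd74 the 95% interval of that difference ran from 0.308 to 1.64. Set against MPP, the HPC-1 effect differed by -0.77 ± 0.26 for H2-Ab1, -0.81 ± 0.43 for H2-Aa, -0.77 ± 0.46 for H2-Eb1 and -0.67 ± 0.44 for Cd74. HPC-1 and HSC differed by 0.08 ± 0.45 for H2-Aa, -0.25 ± 0.26 for H2-Ab1, 0.22 ± 0.51 for H2-Eb1 and 0.31 ± 0.41 for Cd74. Kit and population cannot be told apart in these differences with HPC-1 either. In edgeR 0 members and 0% of genes passed in each of the 3 comparisons. At an unadjusted p under 0.05 there were, in the order given, 3, 1 and 0 members beside 2.86%, 4.48% and 3.46% of all genes. DESeq2 called 0 members and 2, 7 and 11 genes, and limma-voom 0 of both.

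Levels of different members can be compared only per length, as RPKM (CPM divided by the gene length in kilobases, with the lengths in the count table). In control HSC the order was H2-DMa at 198 ± 19.3 RPKM (SD, n = 4, as for all values here), H2-Ab1 at 104 ± 24.2, Cd74 at 89.9 ± 25.7, H2-Aa at 47.9 ± 18, H2-DMb1 at 41.3 ± 10.3, H2-Oa at 13.5 ± 2.86, H2-Eb1 at 10.9 ± 3.93, H2-Ob at 10.7 ± 2.17 and Ciita at 0.966 ± 0.108. Neighbours from H2-Ab1 to H2-DMb1 and from H2-Oa to H2-Ob lay within their SDs of each other. H2-DMa stood above and Ciita below the rest beyond those spreads. In control MPP, H2-DMa stayed first at 244 ± 24.1 RPKM, and H2-Ob at 34.5 ± 6.72 stood above H2-Oa at 22.2 ± 3.77 and H2-Eb1 at 13.3 ± 2.73. In deleted MPP, Cd74 at 375 ± 139 and H2-Ab1 at 357 ± 81.5 had means above H2-DMa at 282 ± 37.5, within their SDs. In control HPC-1 the first was again H2-DMa, at 142 ± 10.3 RPKM, followed by H2-Ab1 at 57.3 ± 9.64 and H2-Ob at 55.2 ± 8.29, whose spreads overlapped.

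The chain genes also varied together between mice of the same group. Each library's log2 CPM was centred on its own group of 4, so that neither genotype nor population entered. Over the 24 libraries, each chain correlated with the mean of the other 3 of H2-Aa, H2-Ab1, H2-Eb1 and Cd74 at r = 0.837, 0.741, 0.864 and 0.876 in that order. Against the mean of all 4, H2-DMb1 had r = 0.46, Ciita 0.371, H2-Ob 0.292, H2-Oa 0.113 and H2-DMa 0.078. The DM and DO genes thus went less with the chains, and the highest r outside them was 0.651 between H2-DMa and H2-Oa. These are descriptions over libraries that share mice, litters and depth.

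Of 10255 genes above 5 CPM, the one outside the set most like the mean of the 4 chains was Ctsh, a lysosomal cysteine protease (cathepsin H), at r = 0.704, followed by Rab4a, an endosomal GTPase, at 0.692 and Fcnb, a ficolin of myeloid cells, at 0.68. Atp6v0c-ps2 (0.647), Ms4a6b (0.639) and Specc1 (0.627) completed the 6 named. For Ctsh the r by population was 0.837 (HSC), 0.563 (MPP) and 0.737 (HPC-1), over 8 libraries each. In the same order it was 0.41, 0.737 and 0.772 for Rab4a, and 0.68, 0.554 and 0.861 for Fcnb. It was 0.3, 0.539 and 0.782 for Atp6v0c-ps2, 0.403, 0.204 and 0.903 for Ms4a6b, and 0.823, 0.373 and 0.782 for Specc1. Ctsh itself had log2 fold changes with deletion of -0.08 ± 0.25, 0.51 ± 0.30 and 0.40 ± 0.41 in the 3 populations.

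The same mouse tended to have a high or a low chain level in both HSC and MPP. The centred mean of the 4 chain genes correlated at r = 0.742 between HSC and MPP over 8 mice, 6 of which had the same sign in both. Control mouse 2 was the lowest in both, at -0.607 in HSC and -0.43 in MPP on the log2 scale. The HSC values ran from -0.607 to 0.403 in control mice but only from -0.172 to 0.101 in deleted mice, and r was not taken by genotype. For HPC-1 the r was 0.171 to HSC and 0.0129 to MPP. In HPC-1 the level was highest in control mouse 1 (0.767) and lowest in control mouse 3 (-0.617).

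**Figure D4:**
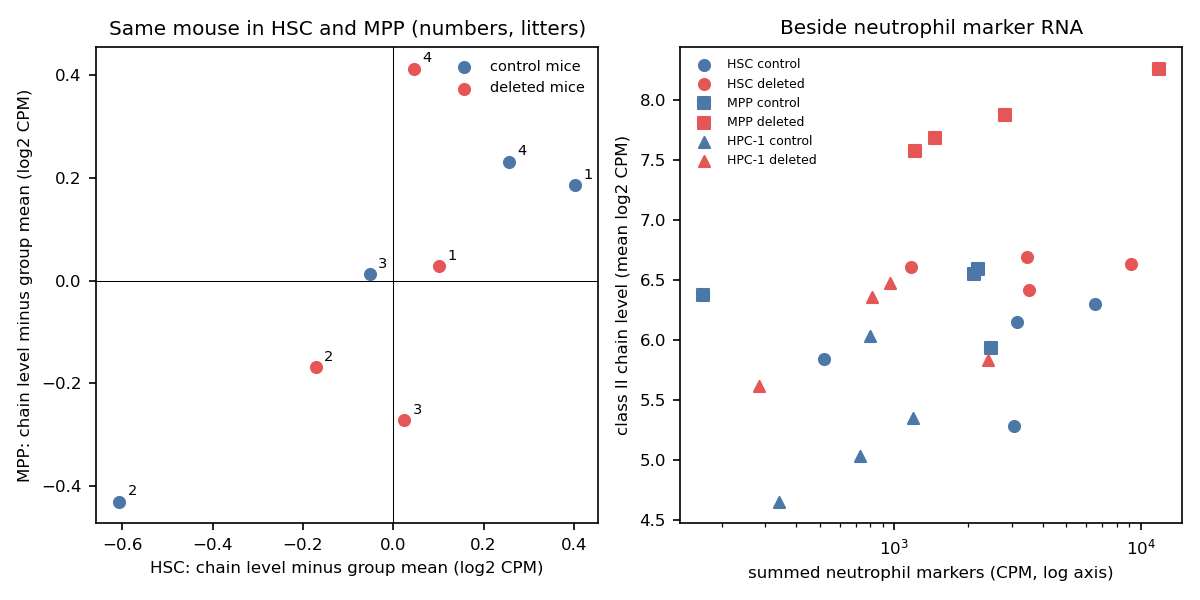
Left, the centred mean log2 CPM of H2-Aa, H2-Ab1, H2-Eb1 and Cd74 in HSC (horizontal) and MPP (vertical) of the same 8 mice, numbered by litter; control mouse 2 is lowest in both. Right, the uncentred chain level (mean log2 CPM, vertical) against summed neutrophil markers (CPM, log axis, horizontal) in all 24 libraries; the 4 deleted MPP libraries (7.58 to 8.26) lie above the 12 other HSC and MPP libraries, and HPC-1, made with another kit, is scaled separately.

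Genes around the members were read from lists of the pathway, and for deletion 0 genes of these 5 lists passed in any population in edgeR. DESeq2 called 2 in MPP, 1 upstream of Ciita and 1 for processing, and limma-voom 0. Among 12 genes upstream of Ciita, the interferon-gamma route and its transcription factors, 7 of 11 tested had a fold above 0 in HSC and 9 of 12 in both MPP and HPC-1. At an unadjusted p under 0.05 the list had 1, 2 and 2 genes in HSC, MPP and HPC-1, against 3.86%, 8.09% and 4.99% of all genes. Spi1, a myeloid transcription factor, was at -0.37 ± 0.19 in HSC, and the interferon-regulatory factor Irf2 at 0.44 ± 0.19 in MPP (156 against 115 CPM). Prdm1, a repressor of Ciita, was at 2.08 ± 0.77 in HPC-1, from means of only 2.45 against 0.566 CPM. Of the 7 factors that sit on class II promoters, 3, 5 and 2 were above 0 in HSC, MPP and HPC-1; Rfxap, an RFX subunit, was at 0.24 ± 0.19, 0.59 ± 0.35 and -0.32 ± 0.14. Creb1 was at -0.36 ± 0.22 in HSC, Rfx5 at -0.26 ± 0.18 in MPP and the NF-Y subunit Nfya at -0.16 ± 0.09 in HPC-1. The promoter factors summed to 657 CPM in the MPP library of deleted mouse 3 and to 341, 369 and 319 in deleted mice 1, 2 and 4. Their MPP folds without that library are not given.

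Of 9 genes for trimming of the invariant chain and handling of class II in endosomes, 4 of 9, 5 of 8 and 6 of 9 tested had folds above 0. Ctss, the cathepsin S that removes the last part of the invariant chain, was at 1.03 ± 0.24 in MPP and 0.32 ± 0.20 in HPC-1. Marchf8, a ubiquitin ligase that lowers surface class II, was at -0.37 ± 0.25 in HSC and -0.44 ± 0.25 in MPP, the protease Ctsl at 0.24 ± 0.21 in HSC and Ifi30 at 0.40 ± 0.22 in HPC-1. The 16 class I presentation genes had medians of 0.00391, 0.0881 and 0.0865, with 8, 11 and 12 above 0. Nlrc5, the class I counterpart of Ciita, was at 0.44 ± 0.20 in HSC and 0.66 ± 0.20 in MPP, and B2m, the light chain of class I, at 0.72 ± 0.32 in MPP. The class I genes summed to 22800 CPM in the MPP library of deleted mouse 3. They summed to 15000, 14200 and 15400 CPM in MPP of deleted mice 1, 2 and 4, and to 12600 to 14500 in control MPP. Class I folds in MPP without the library of deleted mouse 3 are not given. The peptide transporter genes were at 0.32 ± 0.16 in HSC and 0.27 ± 0.08 in HPC-1 for Tap1, and -0.19 ± 0.09 in HPC-1 for Tap2. Of the 4 costimulatory genes tested, 2, 1 and 1 were above 0, and in MPP Cd86 was at 0.70 ± 0.32 and Pdcd1lg2 at -0.84 ± 0.25. In HSC Cd86 was at 0.60 ± 0.65 and Icosl at 0.41 ± 0.58, and in HPC-1 Icosl was at -0.36 ± 0.19 and Cd274 at -0.15 ± 0.15.

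**Figure D5:**
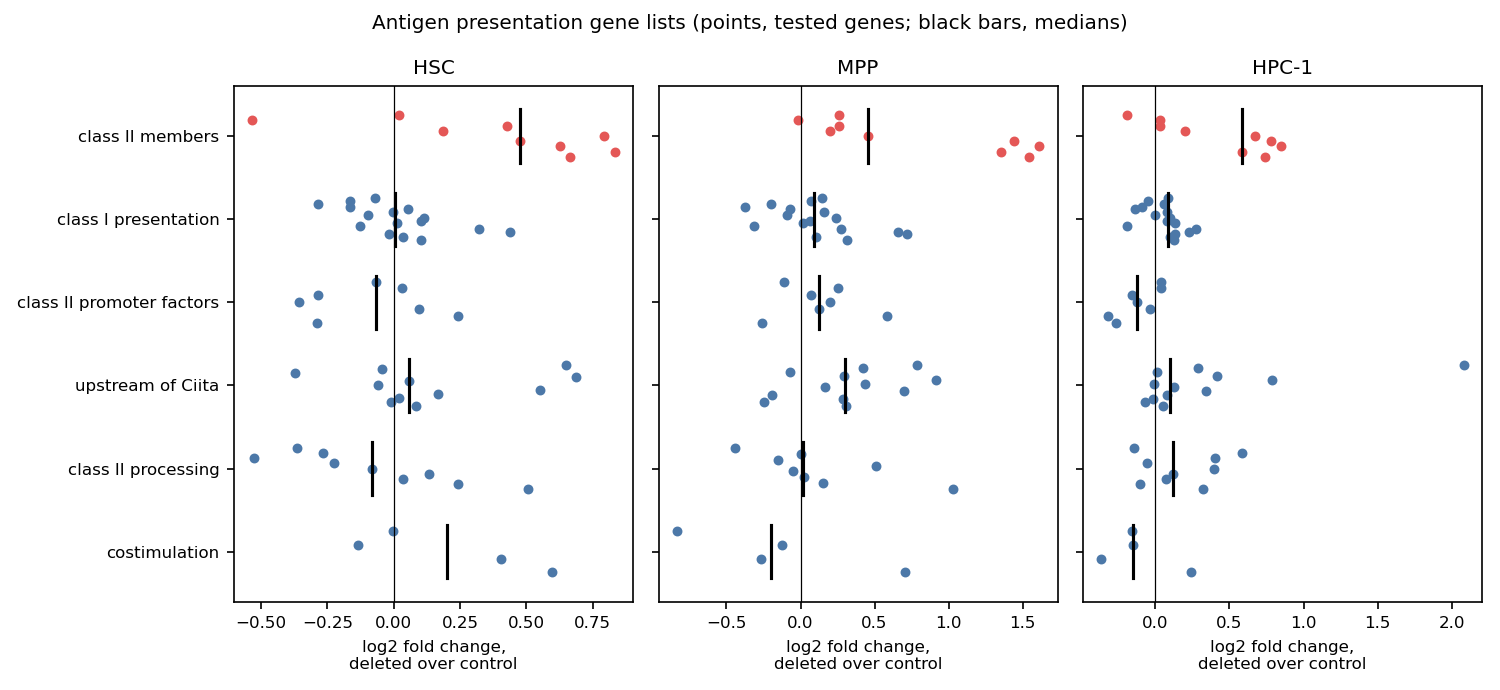
Log2 fold change, deleted over control (horizontal axis, 1 point per tested gene, black bars at medians; the axes differ in range), for the class II members and 5 other lists in HSC, MPP and HPC-1. The class II members have medians of 0.476, 0.455 and 0.587, and the class I genes medians of 0.00391, 0.0881 and 0.0865.

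From HSC to MPP in control mice, 8.84% of all genes passed in edgeR, in either direction. Beside that share, 4 of 11 tested genes upstream of Ciita were higher and passed. These were the interferon-gamma receptor chains Ifngr2 (1.14 ± 0.16, edgeR adjusted p = 0.000827) and Ifngr1 (0.70 ± 0.15, 0.00832), and the transcription factors Irf1 (0.53 ± 0.12, 0.0153) and Spi1 (0.50 ± 0.13, 0.0305). Costimulatory genes passed in 3 of 4 tested, Pdcd1lg2 (1.76 ± 0.24, edgeR adjusted p = 0.000623), Cd86 (2.14 ± 0.49, 0.0198) and Icosl (1.48 ± 0.38, 0.0265), and all 3 were higher in MPP. Ifi30, a lysosomal thiol reductase of class II processing, fell (-1.91 ± 0.37, edgeR adjusted p = 0.0055). In deleted mice, where 1.41% of all genes passed, Ctss did so, from a mean of 31.7 CPM in HSC to 137 in MPP (2.10 ± 0.33, edgeR adjusted p = 0.0125). Ctss in controls was at 1.57 ± 0.67 (edgeR adjusted p = 0.224).

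Markers of the other cells known to carry class II were read in the same libraries. B cell markers summed to 34.9 to 46.7 CPM in control HSC and 31.8 to 54.8 in deleted HSC, and to 41.1 to 52.3 in control and 46.2 to 63.4 in deleted MPP. Most of that was Cd79b (37.3 to 44.7 CPM on average), while Pax5, Ebf1 and Blk had 0 counts in every HSC and MPP library, and Ms4a1 in all but control MPP. Dendritic cell markers summed to 6.98 to 12 CPM in control and 7.06 to 28.9 in deleted HSC, and to 8.16 to 13.6 and 5.28 to 16.9 in MPP; Siglech was at 0 in both HSC groups and in control MPP. In HPC-1 dendritic cell markers summed to 31.8 to 52 CPM (control) and 39.1 to 55.2 (deleted). For deletion, 3 of 4 dendritic cell markers tested were above 0 in HSC, 2 of 3 in MPP and 6 of 10 in HPC-1. At an unadjusted edgeR p under 0.05 there were 0, 1 and 3 of them, beside 3.86%, 8.09% and 4.99% of all genes. Clec9a averaged 4.73 CPM in deleted HSC (3.22 to 7.87) against 1.2 in control HSC (0.0644 to 2.33). Its deleted and control means were 1.06 and 0.206 CPM for MPP, 6.98 and 2.04 for HPC-1, with overlapping ranges. Zbtb46 was lower, at 1.62 against 4.51 CPM for HSC, 1.42 against 3.93 for MPP and 1.16 against 1.28 for HPC-1. Of B cell markers tested, 2 of 2, 2 of 4 and 3 of 7 were above 0. Cr2 averaged 6.07 CPM in deleted and 2.13 in control MPP, with overlap. The part of B cell and dendritic cell markers in the class II values was not tested in any population.

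Neutrophil markers were above 0 in 8 of 8 genes in all 3 populations with none past the threshold. They summed to 521 to 6510 CPM in control and 1170 to 9110 in deleted HSC, to 168 to 2460 and 1210 to 11900 in MPP, and to 341 to 1190 and 283 to 2410 in HPC-1. In MPP, deleted mice 1 to 4 had neutrophil sums of 2810, 1460, 1210 and 11900 CPM and chain levels of 7.88, 7.68, 7.58 and 8.26 log2 CPM. Control mice 1 to 4 had neutrophil sums of 2100, 2460, 168 and 2180 CPM there and chain levels of 6.55, 5.93, 6.38 and 6.59. Macrophage and monocyte markers summed to 46.4 to 88.9 CPM in control and 58.6 to 157 in deleted MPP, with 8 of 10 tested above 0. In HSC the sums were 38.9 to 170 and 40.3 to 181 with 5 of 10 above 0, and in HPC-1 141 to 287 and 197 to 493 with 8 of 9. The part of the neutrophil and macrophage markers in the class II differences was not tested.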

How the data were processed

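Polyadenylated RNA was sequenced, per the labels. The authors deposited raw whole-number counts for each Entrez gene; the submitters' processing notes name bcl2fastq, featureCounts and the build mm10. Aligner, annotation, versions, strand setting and treatment of multi-mapping reads were not given in the sources used. The SMART-Seq kit keeps no strand, so reads of overlapping HSC and MPP genes cannot be separated. Gene symbols and coordinates came from a RefSeq table of GRCm38.p6, which named 25275 of the 27179 identifiers.

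The members, gene lists, tests and alternatives were chosen with earlier results of these data known. Named genes were all 9 members, up to 4 genes past the threshold of each other list or else the 2 with the lowest p, and the 6 genes most like the chains. These picks are named for the pathway lists in the deletion comparisons and, where past the threshold, for MPP against HSC. Marker lists are given as sums and counts, with some of their genes named. One picked gene is not reported here. Each of 8 comparisons was fitted with edgeR 4.0.16 in R 4.3.3 on the deposited counts: TMM scaling, filterByExpr (minimum count 10, minimum total 15), the robust quasi-likelihood test and Benjamini-Hochberg adjustment over all genes, with a threshold of 0.05. The SE is the log2 fold change divided by the square root of F. Intervals are 95%. CPM and RPKM use TMM-scaled totals, over HSC and MPP together and over HPC-1 alone, and log2 CPM has a prior count of 2. Scripts were tested on simulated data.

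Alternatives were RLE size factors, library totals, no filter, DESeq2 1.42.0, voom in limma 3.58.1, the replicate block, and each library left out. Totals ran from 9658167 to 27786830, and no replicates agreed within sampling noise (chi-square per degree of freedom 14.7 to 208). The numbers pair libraries by design, as litter or as mouse per the labels. Same-numbered deviations from the group means correlated across genes, by litter, from 0.0033 to 0.064 (HSC), 0.031 to 0.18 (MPP) and 0.039 to 0.4 (HPC-1). By mouse, between HSC and MPP, the range was 0.18 to 0.37 (control) and 0.015 to 0.41 (deleted). The same number gave a higher r than any other number for 1 of 4 litters in HSC and 2 of 4 in both MPP and HPC-1. For mice this held in 4 of 4 controls and 3 of 4 deleted. The litter pairing thus rests on the labels and was mostly not visible in these correlations.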

Additional observations from a re-analysis of the deposited data

Results flagged for a closer look

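H2-Ob in the HPC-1 library of deleted mouse 3 stood apart from its group. It held 94.9 CPM, while the other 3 deleted libraries held 137.5 to 143.9 CPM, so the gap took up 0.869 of the whole range of the group. Among 54 groups of 4 libraries examined (9 genes in 6 groups) it was the only such sample, and chance flags about 1 group in 20.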

How the results depend on the processing

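For deletion in MPP, 1 member passed in the edgeR fit, against 0 with library totals, 2 without the filter, 4 in DESeq2, 2 in limma-voom, 2 with the litter as a replicate block and 0 to 4 with 1 library left out. For deletion in HPC-1, 0 passed against 1 in DESeq2, 3 with the replicate block and 0 with any library left out, and in HSC 0 passed in every setting run. MPP against HSC in controls gave 1 against 3 in DESeq2, 4 with the mouse as a replicate block and 1 to 2 with a library left out; in deleted mice it gave 4 against 3 to 6 in other settings and 0 to 4 with a library left out. The tests of differing effects gave 0 members throughout. Beside the members gained, the replicate block lost H2-Eb1 for deletion in MPP (1.62 ± 0.20) and changed no other call of a member. Over all genes, deletion in HSC gave 1 against 14 in DESeq2, 0 with the block and 0 to 1 left out; in MPP 4 against 96 in DESeq2, 6 without the filter, in limma-voom and with the block, and 2 to 22 left out; in HPC-1 9 against 20 without the filter, 68 in DESeq2, 60 with the block and 1 to 11 left out. MPP against HSC gave 1205 against 2109 with the block in controls, and 196 against 843 in DESeq2 and 54 to 208 left out in deleted mice. The cause was not tested.

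Directions of the chains held in every deletion and MPP against HSC fit run. For H2-DMb1, MPP against HSC in deleted mice ran from -0.0646 to 0.309 with a library left out. Tests of a differing effect reversed near 0. With library totals H2-DMa was at -0.0737 for MPP minus HSC and 0.0915 for HPC-1 minus MPP, and in limma-voom Ciita was at -0.00555 and H2-Oa at -0.03 for HPC-1 minus MPP. With a mouse left out, MPP minus HSC ran from -0.0788 to 0.0664 for H2-DMa, -0.67 to 0.0802 for Ciita and -0.27 to 0.0425 for H2-DMb1. HPC-1 minus HSC ran from -0.0913 to 0.124 for H2-DMa, -0.101 to 0.305 for H2-Aa, -0.0716 to 0.699 for H2-Eb1, -0.506 to 0.181 for Ciita and -0.442 to 0.0236 for H2-Ob. HPC-1 minus MPP ran from -0.0919 to 0.05 for H2-DMa, -0.042 to 0.163 for H2-Oa and -0.202 to 0.537 for Ciita. Groups of 4 limit what can be detected, and Ciita had only 49 to 346 counts a library.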
